A study of Mus musculus with 6 samples.

Results

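The Slc25 genes encode the mitochondrial carrier family, nuclear-encoded proteins that move nucleotides, phosphate, carboxylates, amino acids, acylcarnitines, cofactors and iron across the inner mitochondrial membrane. Members were taken by symbol alone, as every row whose name is Slc25a followed by a number. This gave 47 of the 24421 gene rows in each file. RNA had been sequenced from mouse colon tissue in 2 groups of 3 samples. The first group had chronic colitis from dextran sulfate sodium (DSS), which damages the lining of the colon, and the second was labelled control. All 6 samples were labelled as C57BL/6 mice, with an age label that reads "7 week older", which may not mean an age of 7 weeks, and the dose and length of DSS treatment are not given in the labels used here. The series asks whether acetylation of histone H3 at lysine 27 is involved in intestinal inflammation, and only expression was analysed here.

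Most carriers are exchangers that return one solute for each one imported, so they set which substrates reach the matrix enzymes. The ADP/ATP carriers and the phosphate carrier feed ATP synthase, the acylcarnitine carrier feeds fat oxidation, and the mitoferrins bring in iron for haem and iron-sulphur clusters. Colonocytes draw much of their energy from the oxidation of butyrate and are rich in mitochondria.

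The epithelial markers Epcam, Cdh1, Krt8 and Cdx2 were read in every sample, so each held epithelium. They cannot tell colon from other parts of the gut. In bulk tissue, fewer cells of a type and less RNA per cell cannot be told apart. Neutrophil markers rose in 8 of 8 genes, and their summed level lay between 4100.27 and 6980.19 FPKM in DSS and between 6.95 and 29.9 FPKM in control colon. Of these, Csf3r, Cxcr2, Mmp8, Hdc and Trem1 had at most 0.382 FPKM in a control, and Retnlg reached 1 FPKM in control 1 alone. The genes just named passed the filter of 1 FPKM in 3 samples only through DSS colon, so a rise was nearly the only call open to them. FPKM counts fragments for each kilobase of a transcript relative to all mapped fragments, so levels can be compared between genes. Of 8 absorptive colonocyte markers 4 fell, and the summed level of the list lay between 1482 and 1823 FPKM in DSS and between 4307 and 6499 FPKM in control colon. Smooth muscle markers summed to between 1178 and 3334 FPKM in DSS and between 3513 and 4446 FPKM in control colon, with 0 of 8 genes past the threshold (5 at an unadjusted limma p under 0.05). Among the other marker lists, 2 of 9 general epithelial and 1 of 6 goblet cell genes were called lower (4 in each list at an unadjusted limma p under 0.05). In the epithelial list 7 genes had a difference below 0 and 2 above it, Cdx2 at 1.48 (adjusted p = 0.196). The goblet list was split, with 3 below 0 and 3 above, among them Muc2 at 1.17 and Spdef at 1.03 (adjusted p = 0.177 and 0.161). Of 3 adipocyte genes 1 rose and 1 fell. None of 6 fibroblast and 6 proliferation genes passed in limma (1 and 0 at an unadjusted p under 0.05). The adipocyte gene that fell, Adipoq, was under 1 FPKM in every DSS sample and passed the filter only through the controls. Of the called markers in these lists and among colonocytes and leukocytes, Cdhr5, Krt8, Krt19, Clca1, Laptm5 and Cidec lost the call in some alternatives. Over all tested genes DSS 1 lay nearer to the controls on the first principal component (59% of the variance) than DSS 2 and DSS 3 did. The depth of each library is unknown, since the values held no steps of whole reads. Gapdh, which every cell uses, was listed at 0 in DSS 1 and at 0.117 FPKM in control 2, so a listed 0 can be a failed estimate.

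Promoter sequence was available in RefSeq for 36 of the 47 members on build GRCm38.p6, which is the assembly that mm10 names. The 250 bases before the start site are shown for Slc25a20 and Slc25a22, which changed between the groups, and for Slc25a1, the citrate carrier, whose window held motifs of both the E-box and CCAAT kinds. Slc25a37 had no entry and was not searched. Capitals mark a motif match, and Slc25a22 has 3 annotated starts, of which the window that holds the CCAAT match is shown.
Slc25a20, chr9:108661886-108662135, plus strand: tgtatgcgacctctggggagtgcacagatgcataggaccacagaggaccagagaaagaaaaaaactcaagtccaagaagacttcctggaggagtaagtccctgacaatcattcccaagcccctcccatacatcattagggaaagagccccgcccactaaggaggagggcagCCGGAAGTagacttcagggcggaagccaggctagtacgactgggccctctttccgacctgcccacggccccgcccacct
Slc25a22, chr7:141435376-141435625, minus strand: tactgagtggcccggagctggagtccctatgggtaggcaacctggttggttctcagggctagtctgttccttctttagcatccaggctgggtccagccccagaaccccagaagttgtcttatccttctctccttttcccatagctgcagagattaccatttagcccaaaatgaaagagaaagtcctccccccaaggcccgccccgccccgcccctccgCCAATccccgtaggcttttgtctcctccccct
Slc25a1, chr16:17928220-17928469, minus strand: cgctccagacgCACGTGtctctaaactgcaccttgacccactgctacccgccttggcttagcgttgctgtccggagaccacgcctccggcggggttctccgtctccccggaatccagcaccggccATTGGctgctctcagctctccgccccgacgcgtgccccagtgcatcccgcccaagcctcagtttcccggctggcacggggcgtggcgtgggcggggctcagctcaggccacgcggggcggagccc
The motifs were sought as exact letters on both strands, and none of them contains another. The ETS/GABP letters CCGGAAGT were found in 1 of the 36 member promoters (2.78%), that of Slc25a20, and in 3.23% of all genes of the table and 6.64% of genes tested. The E-box letters CACGTG were found in 7 of 36 (19.4%), those of Slc25a1, Slc25a13, Slc25a14, Slc25a15, Slc25a31, Slc25a33 and Slc25a36, against 6.86% of all genes and 9.98% of genes tested. The letters CCAAT were found in 18 of 36 (50%), against 37.5% of all genes and 40.3% of genes tested. The cyclic AMP response letters TGACGTCA were found in Slc25a25 and Slc25a36 (5.56%), against 1.77% of all genes and 3.06% of genes tested. The letters TCAAGGTCA (ERR) and TCACCCCAC (SREBP) and the motifs of NRF1, of YY1 and of PPAR with RXR (a direct repeat) were found in 0 of the 36, and in 0.422%, 0.555%, 0.877%, 0.248% and 0.0407% of all genes, and in 0.311%, 0.687%, 1.84%, 0.548% and 0.0752% of genes tested. A match describes letters in the window and says nothing of binding.

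The carriers covered a wide range of levels in control colon. Slc25a5 and Slc25a3 stood first and second, with 1210.05, 1460 and 1329 FPKM and 449, 531 and 503 FPKM in controls 1, 2 and 3. In all, 5 members had a control mean above 100 FPKM, 12 lay from 10 to 100, 18 from 1 to 10 and 12 under 1. Slc25a20, Slc25a24 and Slc25a4 followed at means of 157 ± 19.4, 125 ± 28.3 and 112 ± 15.6 FPKM (SD, n = 3, here and below), and the samples of Slc25a20 and Slc25a24 overlapped, as did those of Slc25a24 and Slc25a4. Slc25a39 and Slc25a11 came next at 72.0 ± 14.8 and 64.1 ± 12.4 FPKM, and Slc25a17, a peroxisomal member, had 36.4 ± 2.03 FPKM. Over the whole order, only 7 neighbours were separated with no overlap between the control samples. As the plot of levels shows, Slc25a5 was first and Slc25a3 second in DSS colon too, and below them the order of means was Slc25a4, Slc25a24 and Slc25a20, the reverse of that in controls.

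**Figure D1:**
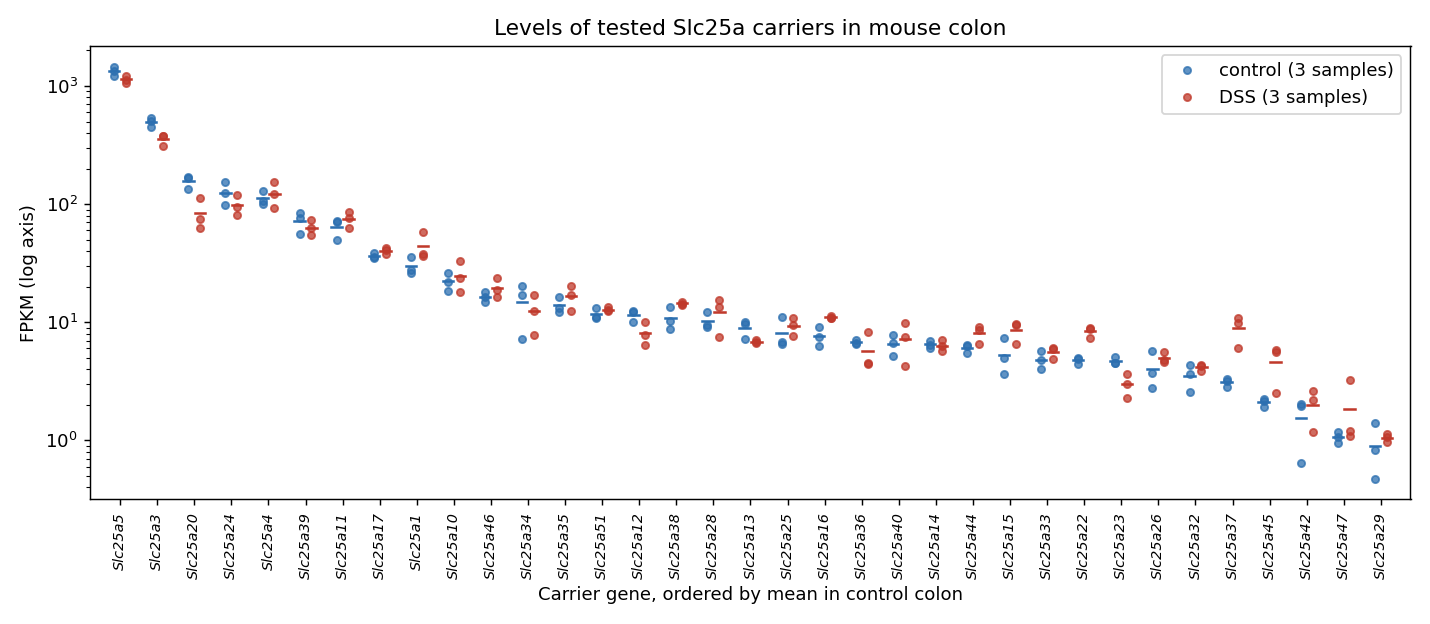
FPKM of 35 of the 36 tested carriers in each of 3 control (blue) and 3 DSS (red) samples, on a log axis, with a short line at each group mean and genes ordered by control mean. Slc25a5 and Slc25a3 stand above all other members in both groups, and the red points of Slc25a37 and Slc25a22 lie above the blue ones while those of Slc25a20 lie below.

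A total of 11 members did not reach 1 FPKM in 3 samples and were not tested. Slc25a41 was listed at 0 in all 6 samples. Slc25a18 had 0.131 FPKM in DSS 1 and was listed at 0 in the other samples, and Slc25a54 had 0.0196 and 0.163 FPKM in DSS 2 and DSS 3 and was listed at 0 elsewhere. The others were Slc25a2, Slc25a21, Slc25a27, Slc25a30, Slc25a31, Slc25a43, Slc25a48 and Slc25a53. The highest value among these 11 was 0.989 FPKM, for Slc25a30 in control 2. Slc25a31, the ADP/ATP carrier of the testis, had at most 0.143 FPKM, and Slc25a27, a carrier known from brain, had between 0.321 and 0.831 FPKM. Very unlike levels were found next to each other in the genome. Slc25a54 ends 6461 bases before Slc25a24 on chromosome 3, with no coding gene between, and Slc25a24 had between 81.2 and 154 FPKM. Slc25a43 lies 18448 bases from Slc25a5 on chromosome X, and its highest value was 0.0939 FPKM. Slc25a41 lies 2056 bases from Slc25a23 on chromosome 17. Slc25a29 and Slc25a47, which lie 162 bases apart on opposite strands of chromosome 12, both stood near 1 FPKM, at 0.903 ± 0.467 and 1.07 ± 0.113 FPKM in control colon.

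Among the 36 tested members 2 rose and 1 fell in DSS colon (limma on log2(FPKM + 1), Benjamini-Hochberg adjusted p under 0.05 over 12348 genes). Slc25a37, mitoferrin 1, which imports iron, and Slc25a22, a glutamate carrier, rose, and Slc25a20, the carnitine-acylcarnitine carrier, fell. These 3 are 8.33% of the tested members, and 8.9% of all tested genes were called (6.34% higher and 2.56% lower), so the share of carriers called was near the background. At an unadjusted p under 0.05 stood 10 members (27.8%), against 28.3% of all genes tested. The 3 samples of a group did not overlap those of the other for 11 members (30.6%), against 35.1% of all genes tested. Of these 7 were higher in DSS, where the share of all genes was 25.6%, and 4 were lower, where it was 9.51%. A difference above 0 was seen for 25 members (69.4%) and for 63.7% of all genes. The median log2 difference was 0.18 over the members and 0.13 over all genes tested, and the middle of the members ran from -0.18 to 0.30 (quartiles). Under 1.5-fold on the log2(FPKM + 1) scale stood 31 of the 36. Median-of-ratios scaling moved the median of all genes from 0.13 to -0.00029 and that of the members to 0.058, and it moved the share of calls that were higher from 71.2% to 50.8%. The members' median minus that of all genes lay between -0.026 and 0.17 over the settings tried.

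**Figure D2:**
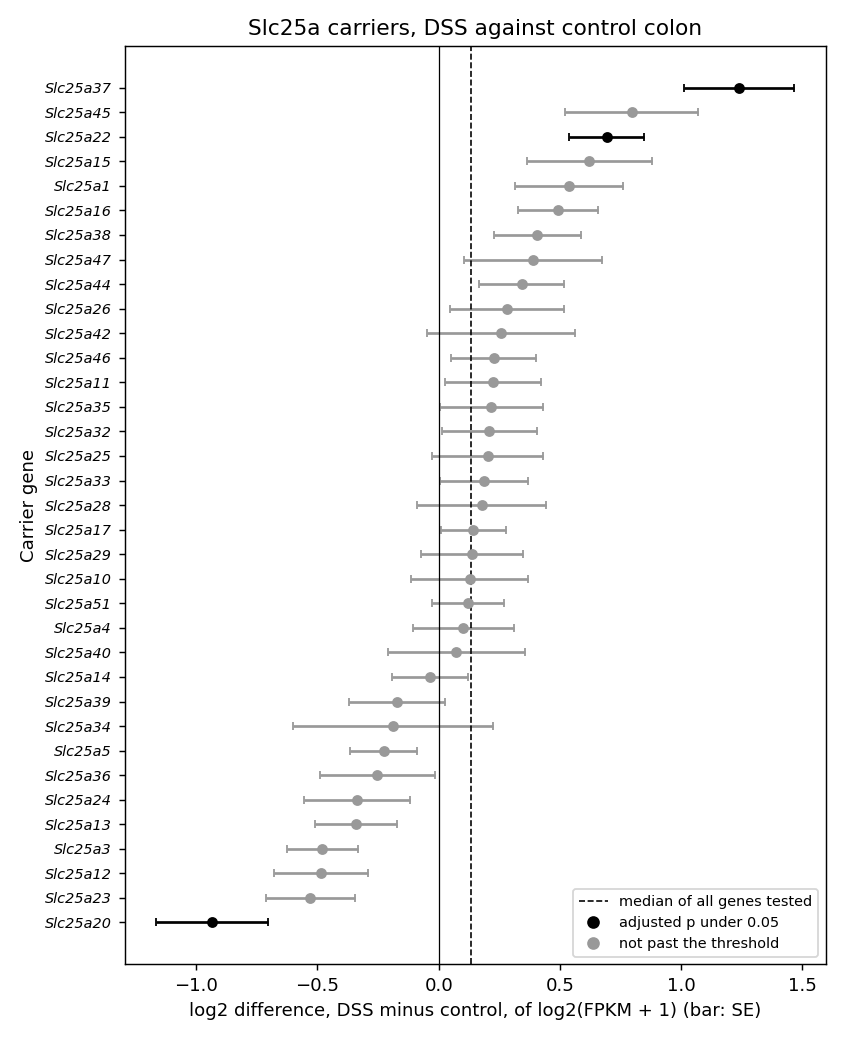
Log2 difference of log2(FPKM + 1), DSS minus control, for 35 of the 36 tested carriers (points, with SE bars), with black for an adjusted p under 0.05 and a dashed line at the median of all genes tested. Slc25a37 (1.24) and Slc25a22 (0.69) lie highest among the black points, Slc25a20 (-0.93) lies lowest, and most other members lie within 0.5 of 0.

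Slc25a37 had 2.81, 3.21 and 3.33 FPKM in controls 1, 2 and 3 and 6.07, 9.79 and 10.9 FPKM in DSS 1, 2 and 3. Every DSS sample stood above every control sample, and DSS 1 was the lowest of the 3. The log2 difference was 1.24 ± 0.23 SE (adjusted p = 0.0188), the widest of the family in either direction. Without DSS 1 it was 1.47 (adjusted p = 0.00372) and without DSS 2 it was 1.16 (adjusted p = 0.0476). The call was lost without DSS 3 (adjusted p = 0.0737), control 1 (0.0708), control 2 (0.0806) or control 3 (0.0745). The gene lies on chromosome 14, 69241848 to 69285112 in GRCm38. Part of its transcript, up to 382 bases, has near-identical copies in 2 other annotated genes, and 6.33% of its exon bases overlap another gene's exons, so its value is uncertain to that extent.

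Its relative Slc25a28, mitoferrin 2, had 9.45, 9.13 and 12.3 FPKM in the controls and 15.3, 7.56 and 13.5 FPKM in DSS 1, 2 and 3 (adjusted p = 0.704). Its groups overlapped, and the lowest and highest of the 6 values were both in DSS colon. The ratio of Slc25a37 to Slc25a28 within a sample was 0.297, 0.352 and 0.271 in the controls and 0.396, 1.30 and 0.808 in the DSS samples. The groups did not overlap (exact two-sided permutation p = 0.1, the lowest that 3 against 3 can give), and Slc25a37 exceeded Slc25a28 in DSS 2 alone. Against Ptprc, a marker of leukocytes, the ratio of Slc25a37 was 1.32, 3.09 and 1.66 in the controls and 1.98, 4.84 and 5.02 in the DSS samples, and the groups overlapped (exact two-sided permutation p = 0.2). Neutrophil marker sums were 4100.27, 6980.19 and 6707 FPKM in DSS 1, 2 and 3. S100a8 and S100a9 weighed most in them, at 2256 and 1616 FPKM in DSS 1. By gene, DSS 1 was lowest of the DSS samples for S100a8, S100a9, Retnlg, Hdc and Trem1. It was highest for Csf3r (4.41, against 2.25 and 1.99 FPKM) and Cxcr2 (3.58, against 3.07 and 2.80 FPKM). For Mmp8 it lay between the others. A pan-leukocyte list had its highest sum in DSS 1 (466 FPKM, against 288 and 310.1 FPKM in DSS 2 and 3 and 102 to 160.2 FPKM in the controls). All 6 of its genes had a difference above 0, with 5 at an unadjusted limma p under 0.05 and 3 past the adjusted threshold. Ptprc had the smallest log2 difference of the 6, at 0.34 (limma adjusted p = 0.367). The median of the list was 1.27, against 1.24 for Slc25a37. The ratio to Ptprc therefore does not stand for the whole list, and ratios to its other genes were not tested. The part of these cells in the level of Slc25a37 was not tested.

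Of 12 genes of haem and iron-sulphur synthesis, the pathways that use imported iron, 0 passed the threshold (2 at an unadjusted limma p under 0.05). Alas1, the first enzyme of haem synthesis, had 47.1 ± 10.5 FPKM under DSS against 27.7 ± 7.83 FPKM in controls (adjusted p = 0.0915), and Urod, a later enzyme, had 26.5 ± 5.64 and 39.4 ± 6.01 FPKM (adjusted p = 0.116). Abcb10, an inner-membrane transporter known to stabilise mitoferrin 1, had 7.80 ± 0.530 FPKM under DSS against 4.82 ± 0.865 FPKM in controls (adjusted p = 0.0681).

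Slc25a20 had 134, 167 and 169 FPKM in controls 1, 2 and 3 and 63.2, 113 and 74.7 FPKM in DSS 1, 2 and 3. The DSS samples all lay below the controls, with DSS 2 the nearest to them. The log2 difference was -0.93 ± 0.23 SE (adjusted p = 0.0480), close to the threshold. It held without DSS 2 (-1.17, adjusted p = 0.0160) and was lost without DSS 1 (adjusted p = 0.0633), DSS 3 (0.158), control 1 (0.0886), control 2 (0.150) or control 3 (0.162), and with a pseudocount of 0.1 (0.0510), weaker filters (0.0555 and 0.0839) or no trend (0.0560). The gene lies on chromosome 9, 108662088 to 108684641, and has neither a near-identical copy nor an exon overlap in the annotation. Among the DSS samples Slc25a20 was lowest in DSS 1. Absorptive colonocyte markers, of which 4 of 8 fell, summed to 1823, 1482 and 1676 FPKM in DSS 1, 2 and 3. By gene, DSS 1 was the highest DSS sample for Aqp8, Car4, Cdhr5 and Ceacam20. It was the lowest for Slc26a3, Krt20 and Slc9a3, and lay between the others for Vil1. The part of these cells in the level of Slc25a20 was not tested.

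Slc25a20 works between the carnitine palmitoyltransferases Cpt1a on the outer and Cpt2 on the inner mitochondrial membrane. Cpt1a had 49.0 ± 7.69 FPKM under DSS against 45.6 ± 7.38 FPKM in controls (adjusted p = 0.758), and Cpt2 had 48.2 ± 9.94 and 47.6 ± 7.09 FPKM (adjusted p = 0.983). The ratio of Slc25a20 to Cpt2 was 3.31, 3.53 and 3.08 in the controls and 1.72, 2.104 and 1.38 in the DSS samples, with no overlap (exact two-sided permutation p = 0.1, the lowest that 3 against 3 can give). Against Epcam, an epithelial marker, the ratio of Slc25a20 was 0.108, 0.153 and 0.173 in the controls and 0.0621, 0.144 and 0.110 in the DSS samples, and the groups overlapped (exact two-sided permutation p = 0.3). Of 17 genes of the carnitine shuttle and fat oxidation 0 passed the threshold (3 at an unadjusted limma p under 0.05), and 13 of the 17 had a difference above 0. Slc22a5, the plasma membrane carnitine transporter, had 14.04, 30.9 and 18.0 FPKM in DSS 1, 2 and 3, against 10.4 ± 1.52 FPKM in controls (adjusted p = 0.0934).

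**Figure D3:**
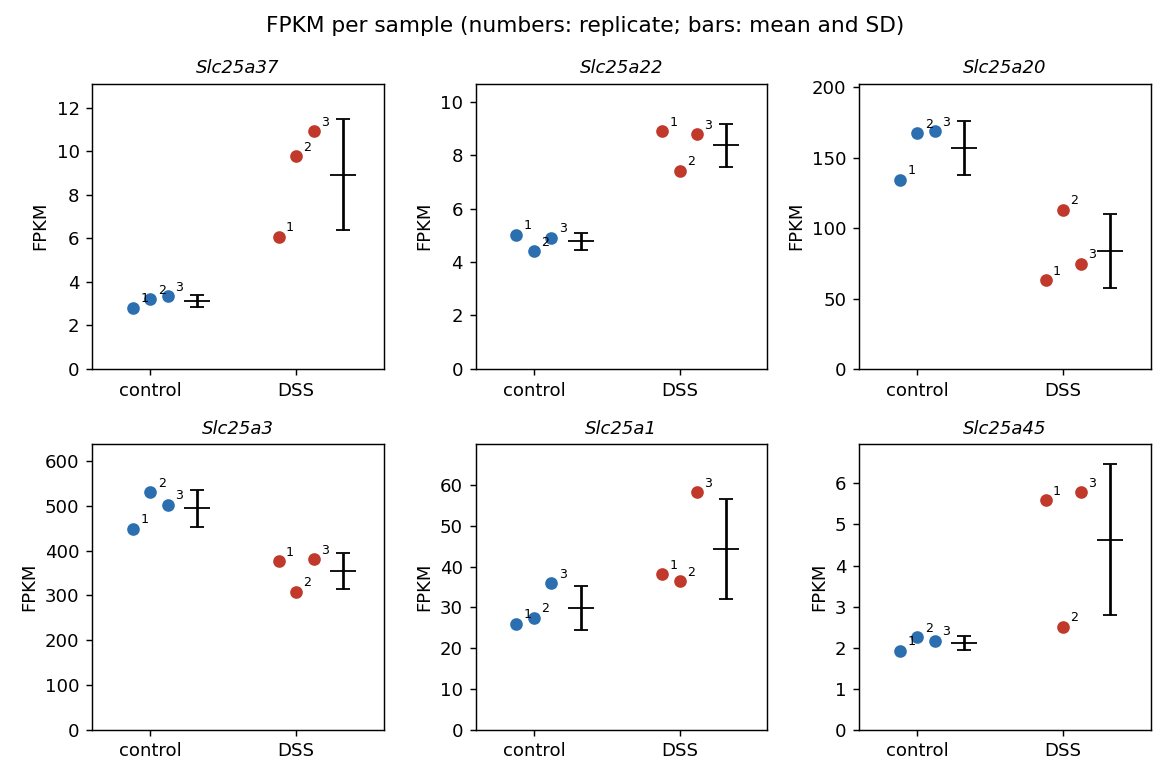
FPKM in each sample for 6 carriers, with replicate numbers beside the points and the group mean and SD as a bar. In Slc25a37, Slc25a22, Slc25a20, Slc25a3, Slc25a1 and Slc25a45 the 3 DSS samples do not overlap the 3 controls, and the first 3 of these passed the threshold. The 6 are a selection: groups did not overlap for 11 of 36 tested members (30.6%), against 35.1% of all genes tested.

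Of 7 tested amino acid carriers 3 had an unadjusted limma p under 0.05, where 28.3% of all genes did, and only Slc25a22 passed the threshold. It had 5.02, 4.41 and 4.91 FPKM in controls 1, 2 and 3 and 8.89, 7.42 and 8.77 FPKM in DSS 1, 2 and 3. The groups were well apart and each was tight, at 4.78 ± 0.325 and 8.36 ± 0.819 FPKM. The log2 difference was 0.69 ± 0.15 SE (adjusted p = 0.0361). It held without DSS 2 (adjusted p = 0.0434) and was lost without DSS 1 (0.0599), DSS 3 (0.125), control 1 (0.0851), control 2 (0.132) or control 3 (0.130) and under TPM (0.0614), upper-quartile (0.0532) or median-of-ratios scaling (0.0590). The gene lies on chromosome 7, 141429744 to 141437892.

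Slc25a12 and Slc25a13, the aspartate-glutamate carriers of the malate-aspartate shuttle, did not pass. Slc25a12 had 10.1, 12.5 and 12.3 FPKM in the controls and 10.1, 6.41 and 7.79 FPKM in DSS 1, 2 and 3 (log2 difference -0.49, adjusted p = 0.152). A stretch of 247 bases of its transcript has a near-identical copy in Adpgk, which had 8.42 FPKM on average in DSS and 4.10 FPKM in control colon, so the value of Slc25a12 and its ratios are uncertain to that extent. Slc25a13 had 7.27, 10.02 and 9.61 FPKM in the controls and 7.05, 6.75 and 6.63 FPKM in the DSS samples (log2 difference -0.34, adjusted p = 0.227). Slc25a12 overlapped between the groups, since DSS 1 was level with control 1, whereas all DSS samples of Slc25a13 lay below all controls, DSS 1 and control 1 being close. The ratio of Slc25a22 to Slc25a12 was 0.495, 0.353 and 0.400 in the controls and 0.878, 1.16 and 1.13 in the DSS samples (exact two-sided permutation p = 0.1, the lowest that 3 against 3 can give). None of the 4 shuttle enzymes Mdh1, Mdh2, Got1 and Got2 passed, with 0 at an unadjusted limma p under 0.05. Their median log2 difference was -0.01.

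Slc25a15, the ornithine carrier, had 3.61, 4.96 and 7.35 FPKM in the controls and 6.53, 9.64 and 9.43 FPKM in DSS 1, 2 and 3 (log2 difference 0.62, adjusted p = 0.165), and control 3 lay above DSS 1. Of 11 tested genes of ornithine, proline and urea metabolism, 4 of which had an unadjusted limma p under 0.05, Arg1 and Arg2, the arginases that form ornithine, rose. Arg1 had 6.34, 13.6 and 12.3 FPKM in DSS 1, 2 and 3 and at most 0.479 FPKM in a control (adjusted p = 0.00151). It passed the filter of 1 FPKM in 3 samples only through DSS colon, so a rise was nearly the only call open to it. It kept the call in the 12 alternatives in which it was tested. Those leave out the fits without a DSS sample, so how the call depends on a single DSS sample is unknown. Arg2 had 10.2, 78.7 and 17.6 FPKM in DSS 1, 2 and 3, against 2.32 ± 0.590 FPKM in controls (adjusted p = 0.0446, lost without DSS 3 at 0.108 and without controls 1, 2 and 3 at 0.130, 0.127 and 0.137, and with upper-quartile or median-of-ratios scaling at 0.0539 and 0.0537). Oat, which uses ornithine in the matrix, had 93.3 ± 6.21 FPKM under DSS against 103 ± 14.2 FPKM in controls (adjusted p = 0.626). Slc25a38, a glycine carrier, and Slc25a44, a carrier of branched-chain amino acids, were both higher in every DSS sample than in any control, with log2 differences of 0.41 and 0.34 (adjusted p = 0.188 and 0.245). Slc25a29, a carrier of basic amino acids, stood near 1 FPKM in both groups.

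The carriers of ADP, ATP and phosphate, which include Slc25a5 and Slc25a3 at the head of the order of levels, did not pass. Slc25a3, the phosphate carrier, had 376, 308 and 380.2 FPKM in DSS 1, 2 and 3, all below the 449, 531 and 503 FPKM of the controls (log2 difference -0.48 ± 0.15 SE, adjusted p = 0.0863). It passed, lower, with upper-quartile (-0.61, adjusted p = 0.0313) and median-of-ratios scaling (-0.64, adjusted p = 0.0264). Slc25a5, the ubiquitous ADP/ATP carrier, had 1223, 1122 and 1068 FPKM in DSS 1, 2 and 3 (log2 difference -0.23, adjusted p = 0.319), and DSS 1 lay above control 1. Part of its transcript, up to 900 bases, has near-identical copies in 2 processed pseudogenes, so its value is uncertain. Slc25a4, the ADP/ATP carrier typical of muscle and heart, had 107, 129.97 and 100.2 FPKM in the controls and 93.1, 121 and 153 FPKM in DSS 1, 2 and 3 (log2 difference 0.10, adjusted p = 0.788), and both the lowest and the highest value were in DSS colon. Its difference was below 0 with upper-quartile (-0.03) and median-of-ratios scaling (-0.05) and without DSS 3 (-0.07).

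Together the 47 carriers summed to 2399, 2844 and 2649 FPKM in controls 1, 2 and 3 and 2258, 2228 and 2289 FPKM in DSS 1, 2 and 3. The DSS samples lay close together and below every control (exact two-sided permutation p = 0.1, the lowest that 3 against 3 can give). Without Slc25a5 and Slc25a3 the sums overlapped, at 740, 854 and 817 FPKM in the controls and 659, 797 and 840 FPKM in the DSS samples (exact two-sided permutation p = 0.6). Slc25a5 made up 50.6% ± 0.605 of the sum in control and 50.4% ± 3.75 in DSS colon. The ratio of Slc25a3 to Slc25a5 was 0.371, 0.364 and 0.378 in the controls and 0.308, 0.275 and 0.356 in the DSS samples, again without overlap (exact two-sided permutation p = 0.1).

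**Figure D4:**
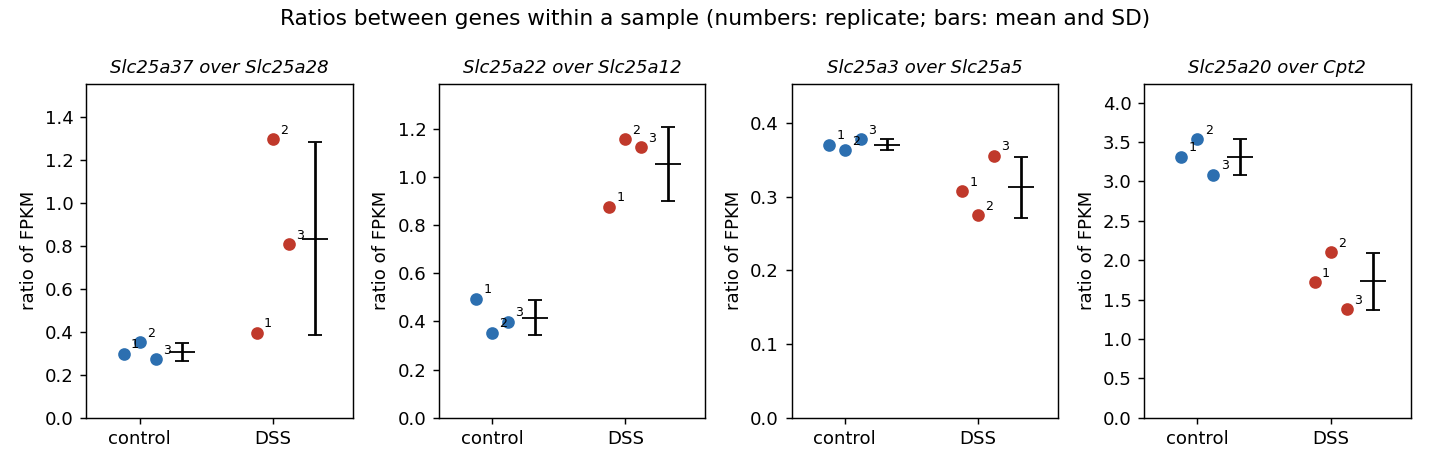
Ratios of FPKM between 2 genes within each sample, with replicate numbers beside the points and the group mean and SD as a bar. The control samples run from 0.364 to 0.378 for Slc25a3 over Slc25a5 and from 0.353 to 0.495 for Slc25a22 over Slc25a12. In DSS, Slc25a37 over Slc25a28 spread from 0.396 to 1.30. The DSS samples lie on 1 side of the controls in all 4 panels, but these ratios were picked after their values were seen. Ratios that are not plotted overlapped between the groups: Slc25a4 over Slc25a5, Slc25a12 over Slc25a13, Slc25a20 over Epcam and Slc25a37 over Ptprc.

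The carboxylate carriers supply citrate, malate and oxoglutarate to the cytosol. Slc25a1, the citrate carrier, had 26.0, 27.4 and 35.9 FPKM in the controls and 38.1, 36.4 and 58.3 FPKM in DSS 1, 2 and 3 (log2 difference 0.54 ± 0.22 SE, adjusted p = 0.165). The groups did not overlap, but control 3 and DSS 2 lay within 1 FPKM of each other. Slc25a10, the dicarboxylate carrier, had 18.3, 22.1 and 26.3 FPKM in the controls and 18.0, 23.7 and 32.8 FPKM in the DSS samples (log2 difference 0.13, adjusted p = 0.768), a difference that was below 0 without DSS 3 (-0.0865) and with upper-quartile (-0.00149) or median-of-ratios scaling (-0.0229). Slc25a11, the oxoglutarate carrier, had 49.9, 71.9 and 70.6 FPKM in the controls and 62.5, 75.7 and 86.1 FPKM in the DSS samples (log2 difference 0.22, adjusted p = 0.495). Of its exon bases 8.9% overlap those of Rnf167 on the other strand, so its value is uncertain to that extent. Of 6 genes of citrate use and lipid synthesis 0 passed (unadjusted, limma gave 1 a p under 0.05), and Acly, which splits exported citrate, had 63.3, 16.5 and 49.7 FPKM in DSS 1, 2 and 3, against 50.1 ± 12.3 FPKM in controls (adjusted p = 0.642). Cs, the citrate synthase that makes citrate in the matrix, fell from 256, 235 and 243 FPKM in the controls to 140.5, 70.7 and 111 FPKM in DSS 1, 2 and 3 (log2 difference -1.23, adjusted p = 0.0246). It kept the call without DSS 1 (0.00628) or DSS 2 (0.0226) and lost it without DSS 3 (0.0786) or controls 1, 2 and 3 (0.0876, 0.0944 and 0.0948).

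The calcium-regulated ATP-Mg/phosphate carriers differed among themselves in level. Slc25a24 had 154, 124 and 97.4 FPKM in controls 1, 2 and 3 and 81.2, 119.8 and 94.4 FPKM in DSS 1, 2 and 3 (log2 difference -0.34, adjusted p = 0.348). Slc25a23 had 4.53, 4.52 and 5.06 FPKM in the controls and 3.02, 2.30 and 3.64 FPKM in the DSS samples, without overlap (log2 difference -0.53, adjusted p = 0.114). Slc25a25 had 10.98, 6.58 and 6.86 FPKM in the controls and 7.61, 9.56 and 10.9 FPKM in the DSS samples, with control 1 the highest of all 6 (log2 difference 0.20, adjusted p = 0.603).

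Of 9 cofactor and nucleotide carriers 8 had a difference above 0 and 0 passed (1 at an unadjusted limma p under 0.05). Slc25a16, linked to coenzyme A transport, had 6.34, 9.04 and 7.57 FPKM in the controls and 10.9, 10.96 and 11.4 FPKM in the DSS samples, which were nearly equal and all above the controls (log2 difference 0.49, adjusted p = 0.106). Slc25a17 had 35.8, 38.7 and 34.8 FPKM in the controls and 42.9, 40.7 and 37.5 FPKM in the DSS samples (log2 difference 0.14, adjusted p = 0.523), a difference that was -0.01 under median-of-ratios scaling. Among the other cofactor carriers, Slc25a26 for S-adenosylmethionine, Slc25a32 for folate, Slc25a33 and Slc25a36 for pyrimidine nucleotides, Slc25a42 for coenzyme A and Slc25a51 for NAD, had log2 differences from -0.25 (Slc25a36) to 0.28 (Slc25a26). Up to 544 bases of the Slc25a36 transcript have a near-identical copy in a pseudogene, so its value is uncertain.

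Slc25a39, which brings glutathione into mitochondria, had 55.5, 76.3 and 84.1 FPKM in the controls and 62.5, 54.6 and 72.7 FPKM in the DSS samples (log2 difference -0.17, adjusted p = 0.610), and its paralog Slc25a40 had 6.54 ± 1.26 FPKM in controls against 7.20 ± 2.78 FPKM under DSS (adjusted p = 0.891). Up to 724 bases of the Slc25a40 transcript have a near-identical copy in a processed pseudogene, so its value is uncertain. Of 7 genes of glutathione synthesis and use, 3 of which had an unadjusted limma p under 0.05, Gsr, glutathione reductase, rose, from 26.8 ± 3.89 to 43.9 ± 5.28 FPKM (adjusted p = 0.0443). That call was lost without DSS 1 (0.0596), DSS 2 (0.0514), DSS 3 (0.154) or controls 1, 2 and 3 (0.116, 0.139 and 0.0892) and under TPM (0.0687), upper-quartile (0.0568) or median-of-ratios scaling (0.0573). Slc25a45, whose transport is less defined, had 1.92, 2.26 and 2.16 FPKM in the controls and 5.59, 2.51 and 5.79 FPKM in DSS 1, 2 and 3 (log2 difference 0.80 ± 0.27 SE, adjusted p = 0.112). DSS 2 stood just above the controls, and without it the gene passed (log2 difference 1.11, adjusted p = 0.0175). Slc25a34 and Slc25a35, also less defined, overlapped between the groups, and 31.3% of the exon bases of Slc25a35 overlap those of Rangrf on the other strand, so reads of both genes are shared. Slc25a46, an outer membrane member linked to mitochondrial fusion, had 16.4 ± 1.65 FPKM in controls against 19.5 ± 3.63 FPKM under DSS (adjusted p = 0.434), and Slc25a14, related to the uncoupling proteins, had 6.49 ± 0.461 and 6.32 ± 0.687 FPKM (adjusted p = 0.905).

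Proteins of the same fold that carry other symbols were read beside them. Ucp2, the uncoupling protein of many tissues, had 117 ± 18.6 FPKM under DSS against 115 ± 24.9 FPKM in controls (adjusted p = 0.935), Mtch1, an outer membrane relative of the carriers, had 63.5 ± 3.81 and 93.04 ± 17.8 FPKM (adjusted p = 0.105), and Mtch2 had 72.2 ± 7.66 and 77.1 ± 6.79 FPKM (adjusted p = 0.708). Ucp1, the uncoupler of brown fat, was listed at 0 in all 6 samples. Carriers enter the inner membrane through the TOM complex, the small Tim chaperones and the TIM22 complex. Of 13 genes of this import route Tomm5 rose, from 203, 243 and 208 FPKM in the controls to 301, 445 and 364 FPKM in DSS 1, 2 and 3 (adjusted p = 0.0438), and 8 of the 13 had an unadjusted limma p under 0.05, against 28.3% of all genes. A difference above 0 was seen for 11 of the 13, against 63.7% of all genes, and the list median was 0.37. Timm22, the channel itself, had 10.1 ± 1.12 FPKM in controls against 13.7 ± 0.995 FPKM under DSS (adjusted p = 0.132). Tomm5 lost the call without DSS 2 (0.0824), DSS 3 (0.132) or controls 1, 2 and 3 (0.122, 0.109 and 0.157) and under upper-quartile (0.0965) or median-of-ratios scaling (0.115).

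Of 20 tested transporters and channels outside the family, among them the pyruvate carrier and the voltage-dependent anion channels, 0 passed (6 at an unadjusted limma p under 0.05). Likewise 0 of 12 factors of mitochondrial biogenesis passed (0 at an unadjusted limma p under 0.05). In the pathway lists together 6 genes were called higher and 2 lower in the main fit, a smaller share than the 8.9% called over all tested genes. With upper-quartile scaling 2 were called higher and 10 lower, where 8.19% of all tested genes were called. With median-of-ratios scaling the numbers were 2 and 12, where 8.44% were called, so the gap depended on the scaling. The lists together were not counted at an unadjusted p. Of 22 genes of pyruvate dehydrogenase and the citric acid cycle, 4 of which had an unadjusted limma p under 0.05, Cs and Sdhb, a subunit of succinate dehydrogenase, fell, with Sdhb at 199 ± 17.4 FPKM under DSS against 332 ± 45.7 FPKM in controls (adjusted p = 0.0308, lost without DSS 2 or 3 at 0.0592 and 0.116 and without controls 2 or 3 at 0.120 and 0.119). Of 46 respiratory chain and ATP synthase subunits 20 had an unadjusted limma p under 0.05, where 28.3% of all genes did. In that list 2 rose, Uqcrq of complex III from 1082 ± 123 to 2099 ± 245 FPKM (adjusted p = 0.0135) and Ndufs4 of complex I from 97.7 ± 3.59 to 143 ± 1.96 FPKM (adjusted p = 0.0352), and the list's median log2 difference was -0.03. Uqcrq lost the call without DSS 3 (0.0603), control 2 (0.0528) or control 3 (0.0650), and Ndufs4 lost it without any 1 of the 6 samples, at an adjusted p between 0.0522 and 0.130, and under TPM (0.0532), upper-quartile (0.0844) and median-of-ratios scaling (0.108).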

How the data were processed

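RNA was measured in 6 samples of mouse colon, 3 DSS and 3 control. The values are FPKM per gene as deposited by the authors, 1 column for each sample, per the file headers. The submitters' processing notes list TopHat2 2.1.1 and mm10. What program and gene models gave the FPKM is not given in the sources used here. The labels name a non-directional kit, so antisense and overlapping genes share reads. The labels do not state whether replicates are different mice, so a p-value reflects only how these samples vary, and that may be technical. Depth is unknown, since ratios of values under 0.5 FPKM between samples showed no steps (at most 1.52% in a bin of 0.02 log2 units).

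A filter of 1 FPKM or more in 3 or more samples kept 12348 genes, which were fitted on group as log2(FPKM + 1) with limma 3.58.1 in R 4.3.3 (trend, robust), two-sided, with Benjamini-Hochberg adjustment over all genes tested and a threshold of 0.05. The scale understates changes of low genes. Fold changes and all other statistics were computed here; the fit was tested on simulated data. Positions are from GENCODE on GRCm38, and all 47 members matched by symbol. BLAST+ 2.17.0 sought copies of 95% or higher identity spanning 200 bases or longer (5 members). Exons of 12 tested members overlap those of another gene, so their values are uncertain to that extent. Figures used matplotlib 3.10.9 under Python 3.11.15.

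The members, gene lists, motifs and ratios were chosen with earlier results of these data known, and the ratios and motifs after the values were seen. Values are given per sample for members past the threshold, the 10 largest differences, the 8 highest control levels and a fixed set of 15. The values of 1 tested member are in the counts and medians and are otherwise not reported here. Of each pathway list, genes past the threshold and up to 2 others were named, with partner enzymes of the carriers (Cpt1a, Cpt2, Oat, Acly, Timm22 and Ucp2) added after their values were seen. Alternatives were other pseudocounts, filters, scalings and moderation, the replicate block, and each sample left out.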

Additional observations from a re-analysis of the deposited data

How the results depend on the processing

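The 2 rises and 1 fall among the carriers depended on the settings. Members called higher were 1 under TPM, upper-quartile and median-of-ratios scaling and with the replicate number as a block, and 0 to 3 with each sample left out. Members called lower were 0 with a pseudocount of 0.1, with no filter, with a filter at 0.1 FPKM and with no trend, 2 with either of upper-quartile and median-of-ratios scaling, and 0 to 1 with each sample left out. A fit without 1 sample holds 5 samples, and called between 191 and 972 genes higher and between 58 and 584 lower, against 783 and 316 with all 6. Median-of-ratios scaling called 513 genes lower. In the pathway lists, genes called higher were 3 with no filter and with no trend, 2 with either of those scalings and between 0 and 9 with each sample left out. Genes called lower there were 0 with no filter, 10 with upper-quartile and 12 with median-of-ratios scaling, 1 with the replicate block and 0 to 6 with each sample left out. The cause was not tested. Slc25a37 kept its call in 11 of 15 alternatives, and Slc25a20 and Slc25a22 kept theirs in 6 of 15 each. The direction of the 3 was the same in all 15. Signs changed for members that did not pass: Slc25a4 (-0.0325 with upper-quartile and -0.0548 with median-of-ratios scaling, -0.0743 without DSS 3 and up to 0.282 without DSS 1), Slc25a10 (-0.00149, -0.0229 and -0.0865 in the same settings, and up to 0.330 without DSS 1), Slc25a17 (-0.0106 with median-of-ratios scaling) and Slc25a28 (-0.00708 without DSS 1 and up to 0.459 without DSS 2). The members' median log2 difference lay between 0.06 and 0.28 in all settings. With no filter Tomm5 (adjusted p = 0.0714), Cs (0.0517), Sdhb (0.0503), Arg2 (0.0712) and Gsr (0.0691) did not pass, nor with no trend did Tomm5 (0.0538), Ndufs4 (0.0507) and Gsr (0.0525). With the filter at 0.1 FPKM Tomm5 (0.0501), Gsr (0.0513) and Krt19 (0.0511) did not pass. Among the cell markers the call was kept in 6 of 15 alternatives for Cidec, 7 for Krt19, 9 for Cdhr5, 10 for Krt8 and 11 each for Clca1 and Laptm5, with a highest adjusted p of 0.126, 0.136, 0.115, 0.0904, 0.0594 and 0.0917, each without 1 sample. Same-numbered samples share only a number: their deviations from the group means correlated at 0.0818, 0.129 and 0.00308. With the replicate block 895 genes were called against 1099, and Slc25a22 (adjusted p = 0.0611), Sdhb (0.0602), Ndufs4 (0.0768) and Gsr (0.0561) were not. Depth is unknown, so its limits on members under 1 FPKM could not be stated.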
